A study of Homo sapiens with 32 samples.

Results

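The Fc receptor-like genes FCRLA, FCRL1, FCRL2, FCRL3, FCRL4 and FCRL5 were examined in 2 human diffuse large B-cell lymphoma (DLBCL) lines, TMD8 and DOHH2. They are 6 of the 25066 genes and other features in the deposited expression table and were taken by symbol alone (gene IDs 84824, 115350, 79368, 115352, 83417 and 83416, in the order above). Cells of both lines, which the labels give as engineered to carry Cas9, received 500 nM of a compound that inhibits the kinase CSK (CSKi), or the vehicle DMSO. RNA was taken after 1, 3, 6 and 24 h, with 2 libraries for each combination of line, treatment and time, or 32 libraries in all. The Cas9 is shared by every group, and the labels name no guide RNA and do not say whether a line is 1 clone. The titles number the duplicates as bio replicates and do not say that they are separate cultures, so the p-values measure the spread between libraries. The rule uses names only, but the family was chosen by someone who had earlier results of these data in view, the vehicle levels and the differences of CSKi minus DMSO by time. These are therefore given as descriptions: p-values adjusted over all 12000 features tested describe single genes and are no independent evidence about the family.

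FCRL1 to FCRL5 encode surface proteins of the immunoglobulin superfamily found mainly on B cells. Their tails carry tyrosine motifs that Src family kinases such as LYN can phosphorylate: FCRL1 has motifs of the activating kind, FCRL4 inhibitory motifs (ITIMs), and FCRL2, FCRL3 and FCRL5 motifs of both kinds. Phosphorylated ITIMs recruit phosphatases such as SHP-1, the product of PTPN6, and thereby dampen B cell receptor signalling. FCRLA has no transmembrane segment and stays inside the cell, where it binds immunoglobulin. CSK, the C-terminal Src kinase, restrains Src family kinases by phosphorylating the inhibitory tyrosine in their tails.

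FCRL5, FCRL4, FCRL3, FCRL2 and FCRL1 lie side by side in this order on chromosome 1, and FCRLA lies apart from them beside the Fc gamma receptor genes. The 100 bases before each start site are shown because 5 of the 6 genes moved in the same direction in TMD8 at 24 h. The letters AGGAAGT, a form of the site of ETS factors, also recur in them. The sequences are from RefSeq, build GRCh38.p14, all 6 genes matched, each is given 5′ to 3′ on the gene's own strand, and capitals mark the letters ACTTCCT, the reverse complement of AGGAAGT.
FCRL5 (chr1:157552516-157552615, minus strand): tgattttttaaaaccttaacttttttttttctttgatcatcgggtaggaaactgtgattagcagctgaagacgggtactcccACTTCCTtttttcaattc
FCRL4 (chr1:157598086-157598185, minus strand): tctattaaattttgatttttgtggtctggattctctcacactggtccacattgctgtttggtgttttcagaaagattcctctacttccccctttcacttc
FCRL3 (chr1:157700770-157700869, minus strand): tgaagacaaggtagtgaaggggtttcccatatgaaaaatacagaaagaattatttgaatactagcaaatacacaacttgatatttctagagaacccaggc
FCRL2 (chr1:157777133-157777232, minus strand): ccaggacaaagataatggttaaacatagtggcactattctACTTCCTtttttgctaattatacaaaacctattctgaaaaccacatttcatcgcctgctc
FCRL1 (chr1:157820121-157820220, minus strand): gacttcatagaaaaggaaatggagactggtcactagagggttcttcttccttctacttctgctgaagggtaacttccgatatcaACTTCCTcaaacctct
FCRLA (chr1:161707129-161707228, plus strand): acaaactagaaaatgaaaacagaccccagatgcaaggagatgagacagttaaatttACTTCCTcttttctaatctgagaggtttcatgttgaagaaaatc

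The motif search covered both strands of the 300 bases around each start site, from 250 before to 50 after. AGGAAGT, a fixed form of the site of ETS factors, had a match in 4 of the 6 genes and in 8.31% of all 27305 promoters of that length. Apart from the composite below, other forms of that site were not searched, so a gene without a match can hold them. The matches began 18 and 151 bases before the start site of FCRL5, 60 before that of FCRL2, 16 and 217 before that of FCRL1, and 44 before that of FCRLA. The IRF repeat had a match in FCRL1 and FCRLA, 91 and 92 bases before the start site, and in 3.65% of all promoters. These overlapped no AGGAAGT match. The ETS and IRF composite (2.84% of all promoters), the octamer ATGCAAAT (1.80%), the forkhead letters TGTTTAC (3.41%) and the EGR letters GCGGGGGCG (5.02%) had no match in these 6 windows. A match here is a description of letters and not a bound site.

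Libraries held 12273442 to 24907030 mapped reads. In TMD8, each of the 6 genes had at least 206 reads in every vehicle library. B cell marker genes summed to 3721 to 5068 RPM (reads scaled to the mapped reads of a library) in TMD8 and 1637 to 2100 in DOHH2. T and NK cell markers summed to 2.95 to 5.66 and 4.21 to 6.87. At or under a mean of 3 reads were 6 of the 9 measured in TMD8, CD3D, CD3E and CD3G among them, and 4 in DOHH2. CD2 was at or under it in both lines. The rest had more. In TMD8, CD8A had 22 to 53 reads per library, CD4 12 to 41 and NKG7 4 to 12. In DOHH2, NKG7 had 24 to 65, CD4 8 to 47, CD3E 7 to 28, CD3G 4 to 17 and CD3D 0 to 11. CSK itself was lower with CSKi in TMD8 at 3 h (log2 difference -0.14 ± 0.03, ± SE of the fit here and throughout for differences, adjusted p = 0.0216) and was not called at the other times. In DOHH2, CSK was called at no time in the fit of all libraries, and at 3 h (-0.16 ± 0.04, adjusted p = 0.00574) and 6 h (-0.21 ± 0.04, adjusted p = 0.000504) without the 4 libraries labelled 24 h. The DOHH2 libraries labelled 24 h stood apart. Their duplicates differed from each other with an SD of the log2 difference over features of 0.328 (DMSO) and 0.381 (CSKi), against 0.17 to 0.226 in the other groups. The library labelled DMSO replicate 1 differed from that labelled CSKi replicate 2 by 0.218, and that labelled DMSO replicate 2 from CSKi replicate 1 by 0.275. Levels and tests in DOHH2 are therefore given also without these 4 libraries.

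In vehicle, FCRL5 and FCRL3 stood highest in TMD8, and FCRLA stood highest in DOHH2. Levels between genes were compared as RPKM, reads per kilobase of exon scaled to the mapped reads of a library (mean ± SD over the 8 vehicle libraries of a line). In TMD8, FCRL5 stood at 90.6 ± 8.08 and FCRL3 at 84.3 ± 9.06 RPKM, with overlapping ranges. FCRLA followed at 63.8 ± 9.41 and FCRL2 at 54.1 ± 3.96, again with overlapping ranges. FCRL4 (6.04 ± 0.872) and FCRL1 (5.04 ± 0.691) were the lowest and overlapped as well. The length used changed the order of FCRL2 and FCRLA and that of FCRL4 and FCRL1. The alternative counted reads per base of the 1 transcript listed for each gene instead of all its exons. The TMD8 means were then 209 for FCRL5, 117 for FCRL3, 106 for FCRL2 and 89.3 for FCRLA. FCRL1 then had 7.63 and FCRL4 6.77. By that length FCRL5 (184 to 235) did not overlap FCRL3 (106 to 137). FCRL3 overlapped FCRL2 (98.7 to 119), which overlapped FCRLA (72.6 to 106).

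In DOHH2 the order was FCRLA (115 ± 7.87 RPKM), FCRL1 (23.2 ± 4.12), FCRL2 (9.50 ± 0.939), FCRL3 (1.74 ± 0.189), FCRL5 (0.725 ± 0.0884) and FCRL4 (0.0117), and no neighbours in this order overlapped. Over the 6 vehicle libraries without those labelled 24 h the order was the same, with FCRLA at 117 ± 4.35 and FCRL1 at 22.5 ± 3.94 RPKM. Shares of the summed RPKM use the length of all exons and were not computed with the listed transcript. FCRLA made up 76.5% of the summed RPKM of the 6 genes in DOHH2 (77.5% without the 24 h libraries) and 20.9% in TMD8. FCRL5 and FCRL3 together led in TMD8, at 29.8% and 27.7% of the sum, and made up 0.484% and 1.16% of it in DOHH2. FCRL1, the member with activating motifs, was 15.5% of the sum in DOHH2 (14.8% without the 24 h libraries) and 1.66% in TMD8.

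On the deposited log2 scale, the vehicle values of the 2 lines did not overlap for any of the 6 genes. The share of all features without overlap was not counted, and limma called 89.1% of features between the lines. The lack of overlap is therefore not read as a trait of the family. FCRL5 ran from 14.73 to 15.09 (median 14.88) in TMD8 and from 7.47 to 8.13 (median 7.96) in DOHH2, a log2 difference of 6.99 ± 0.08. FCRL3 ran from 13.72 to 14.12 (median 13.79) against 8.08 to 8.52 (median 8.24), a difference of 5.62 ± 0.04. FCRL2 ran from 12.74 to 13.03 (median 12.82) against 10.09 to 10.57 (median 10.30), a difference of 2.53 ± 0.05. All 3 genes were thus higher in TMD8, FCRL5 by the most and FCRL2 by the least. FCRL1, at the other end of the cluster, was lower in TMD8, with 8.62 to 9.24 (median 9.11) against 10.86 to 11.59 (median 11.21) and a difference of -2.18 ± 0.06. FCRLA was lower as well, with 12.18 to 12.74 (median 12.45) against 13.07 to 13.41 (median 13.33) and a difference of -0.84 ± 0.03.

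FCRL4, known as a marker of memory B cells in tissues near epithelium, was close to absent from the DOHH2 libraries. Its vehicle reads numbered 3234 over 8 libraries in TMD8 and 6 over 8 libraries in DOHH2, where no library had more than 2 and 3 had none. After scaling to mapped reads that is a ratio of 563 (exact 95% interval 258 to 1535, which covers counting error only). With CSKi the reads were 2474 and 2, and 6 of the 8 DOHH2 libraries had none.

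By limma, all 6 genes differed between the lines in vehicle, 4 higher and 2 lower in TMD8, in a comparison that called 89.1% of all features (42.6% higher and 46.5% lower). The largest adjusted p among the 6 was 4.24e-17, for FCRLA. Over 1, 3 and 6 h alone, without the DOHH2 libraries labelled 24 h, all 6 were called as well (89.4% of features), with FCRL5 at 7.08 ± 0.08, FCRL3 at 5.61 ± 0.05, FCRL2 at 2.51 ± 0.02, FCRL1 at -2.04 ± 0.04 and FCRLA at -0.79 ± 0.02. In bulk RNA, fewer cells with a transcript and less of it per cell cannot be told apart. Next to FCRL5 on the chromosome, the transcription factor gene ETV3 had a difference of 0.11 ± 0.07 (adjusted p = 0.149), and ETV3L beyond it had a median of 4 vehicle reads in TMD8 and 0 in DOHH2. On the side of FCRL1, the scavenger receptor family gene CD5L had a median of 8 vehicle reads in TMD8 and 24 in DOHH2, and KIRREL1 beyond it 45.5 and 0. Beside FCRLA, the inhibitory Fc receptor gene FCGR2B had a difference of 0.03 ± 0.08 (adjusted p = 0.704) and FCRLB one of -1.31 ± 0.11 (adjusted p = 1.72e-10). DUSP12, on the far side of FCRLB, had a difference of 0.21 ± 0.04 (adjusted p = 9.15e-06). The 2 further genes with the family's name were low: FCRLB had 25 to 57 reads per library in TMD8 and 70 to 156 in DOHH2, and FCRL6 had no read in TMD8 and 1 read in all DOHH2 libraries together.

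**Figure D1:**
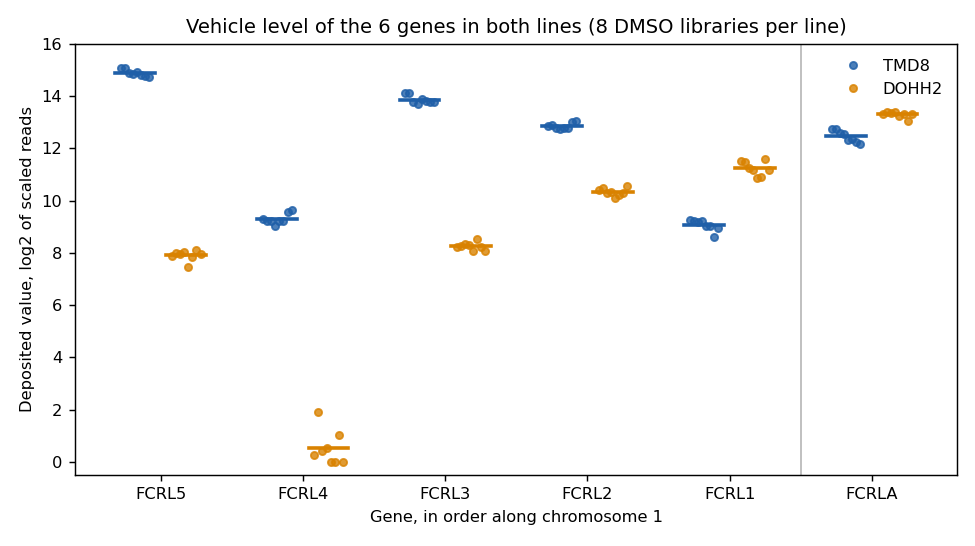
Deposited log2 value (log2 of scaled reads) of each Fc receptor-like gene in the 8 vehicle libraries of TMD8 (blue) and DOHH2 (orange), points placed from left to right by time and bars at the mean; the vertical line sets FCRLA apart from the cluster. FCRL5, FCRL4, FCRL3 and FCRL2 lie higher in TMD8, and FCRL1 and FCRLA lie higher in DOHH2, with no overlap in any gene. The share of all features without overlap was not counted.

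In TMD8, FCRL5 was lower with CSKi from 3 h, and at 24 h FCRLA, FCRL1, FCRL2, FCRL3 and FCRL5 were all higher while FCRL4 was lower. At 1 h none of the 6 genes was called, where limma called 0.05% of all features. At 3 h only FCRL5 was called, lower with CSKi, against 4.73% of all features (1.48% higher and 3.26% lower). At 6 h FCRLA and FCRL2 were higher and FCRL4 and FCRL5 lower, 4 of 6 genes against 12.7% of features (5.67% higher and 6.98% lower). At 24 h all 6 were called, 5 higher and 1 lower, against 54% of features (27.9% higher and 26.2% lower). In a fit of the libraries of both lines together, 0 of the 6 were called at 3 and 6 h and 5, all but FCRL4, at 24 h. The share of all features called in that fit was not counted. It estimates the spread over both lines, the DOHH2 libraries labelled 24 h among them. With the same log2 differences, its SE was 0.15 for FCRL5 and 0.37 for FCRL4. The fit of TMD8 alone gave 0.04 and 0.08. The median log2 difference of the 6 genes was 0.02, -0.08, 0.05 and 0.49 at the 4 times, and that of all features between -0.001 and 0.0155. CSKi and DMSO values did not overlap in 3, 4, 5 and 6 of the 6 genes at 1, 3, 6 and 24 h, against 31.4%, 50.6%, 56.7% and 73.6% of all features.

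FCRL5, a receptor for IgG found on mature and memory B cells, was the 1 gene of the 6 that was called lower with CSKi at some times and higher at another. Its DMSO values were 15.09 and 15.09 at 1 h, 14.90 and 14.86 at 3 h, 14.91 and 14.83 at 6 h, and 14.78 and 14.73 at 24 h. Its CSKi values were 15.04 and 15.15 at 1 h, 14.69 and 14.69 at 3 h, 14.43 and 14.36 at 6 h, and 15.14 and 15.12 at 24 h. Both CSKi libraries lay below both DMSO libraries at 3 and 6 h and above them at 24 h. The log2 difference was 0.01 ± 0.04 at 1 h, -0.19 ± 0.04 at 3 h (adjusted p = 0.00172), -0.48 ± 0.04 at 6 h (adjusted p = 8.6e-10) and 0.38 ± 0.04 at 24 h (adjusted p = 5.45e-09). The value at 6 h is a 1.39-fold decrease and that at 24 h a 1.30-fold increase. From 6 to 24 h the mean of the CSKi libraries moved by 0.73 and that of the DMSO libraries by -0.12. The call at 3 h was lost without DMSO replicate 1 of that time (-0.17, adjusted p = 0.0663).

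FCRL4, whose tail carries inhibitory motifs, was the 1 gene of the 6 that was lower with CSKi at 24 h. Its DMSO values were 9.31 and 9.24 at 1 h, 9.20 and 9.03 at 3 h, 9.23 and 9.20 at 6 h, and 9.58 and 9.65 at 24 h. Its CSKi values were 9.35 and 9.36 at 1 h, 8.91 and 8.92 at 3 h, 8.92 and 8.93 at 6 h, and 9.10 and 8.94 at 24 h. From 3 h onward every CSKi library lay below every DMSO library of its time. The log2 difference was 0.08 ± 0.08 at 1 h, -0.20 ± 0.08 at 3 h (adjusted p = 0.198), -0.29 ± 0.08 at 6 h (adjusted p = 0.0212) and -0.60 ± 0.08 at 24 h (adjusted p = 1.3e-06). The call at 6 h was lost when any 1 of the 4 libraries of that time was left out (adjusted p from 0.0925 to 0.133). In vehicle FCRL4 was 0.34 higher at 24 h than at 1 h, and with CSKi it was 0.33 lower.

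FCRLA, the intracellular member, was the gene with the smallest p at 24 h. Its DMSO values went from 12.73 and 12.74 at 1 h through 12.57 and 12.55 at 3 h and 12.34 and 12.35 at 6 h to 12.24 and 12.18 at 24 h. Its CSKi values were 12.80 and 12.76 at 1 h, 12.59 and 12.53 at 3 h, 12.55 and 12.54 at 6 h, and 13.09 and 13.12 at 24 h. The 2 arms overlapped at 3 h and were separate at 6 and 24 h, with CSKi higher. The log2 difference was 0.05 ± 0.04 at 1 h, -0.01 ± 0.04 at 3 h, 0.20 ± 0.04 at 6 h (adjusted p = 0.000458) and 0.89 ± 0.04 at 24 h (adjusted p = 1.22e-15), the last a 1.86-fold increase. Vehicle libraries at 24 h were 0.52 below those at 1 h, and CSKi libraries 0.32 above theirs.

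FCRL1, which adds to B cell receptor signalling through its activating motifs, was called at 24 h alone. Its DMSO values were 9.24 and 9.24 at 1 h, 9.19 and 9.22 at 3 h, 9.03 and 9.04 at 6 h, and 8.62 and 8.93 at 24 h, the last pair being the widest of the 4. Its CSKi values were 9.19 and 9.11, 9.08 and 9.05, 9.18 and 9.05, and 9.66 and 9.66 at the same times. Both CSKi libraries lay below both DMSO libraries at 1 h (-0.09 ± 0.09, adjusted p = 0.997) and 3 h (-0.14 ± 0.09, adjusted p = 0.484). CSKi was above DMSO in all libraries at 24 h by a log2 difference of 0.88 ± 0.09 (adjusted p = 9.13e-09), which lay between 0.73 and 1.04 when 1 library was left out. At 6 h the difference was 0.08 ± 0.09 (adjusted p = 0.638).

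FCRL2 and FCRL3, both with mixed motifs, were higher with CSKi at 24 h, and FCRL2 also at 6 h. At 1 h FCRL2 had DMSO values of 12.85 and 12.89 and CSKi values of 12.86 and 12.84, and at 3 h 12.78 and 12.74 against 12.81 and 12.79. Its difference was -0.02 ± 0.04 at 1 h and 0.04 ± 0.04 at 3 h. FCRL2 had DMSO values of 12.79 and 12.77 at 6 h and 13.01 and 13.03 at 24 h, and CSKi values of 13.01 and 12.98 at 6 h and 13.37 and 13.49 at 24 h. The CSKi libraries of FCRL2 lay above the DMSO libraries at both times, by 0.22 ± 0.04 (adjusted p = 0.000229) and 0.40 ± 0.04 (adjusted p = 2.36e-09). FCRL2 also went up in vehicle, by 0.15 from 1 to 24 h. At 1 h FCRL3 had DMSO values of 14.12 and 14.11 and CSKi values of 14.11 and 14.15, and at 3 h 13.77 and 13.72 against 13.74 and 13.69. The arms of FCRL3 overlapped at both times (0.02 ± 0.04 and -0.03 ± 0.04). FCRL3 had DMSO values of 13.87 and 13.80 at 6 h and 13.78 and 13.77 at 24 h, and CSKi values of 13.91 and 13.82 at 6 h and 14.39 and 14.32 at 24 h. The arms of FCRL3 overlapped at 6 h (0.03 ± 0.04) and were separate at 24 h by 0.58 ± 0.04 (adjusted p = 1.56e-12).

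**Figure D2:**
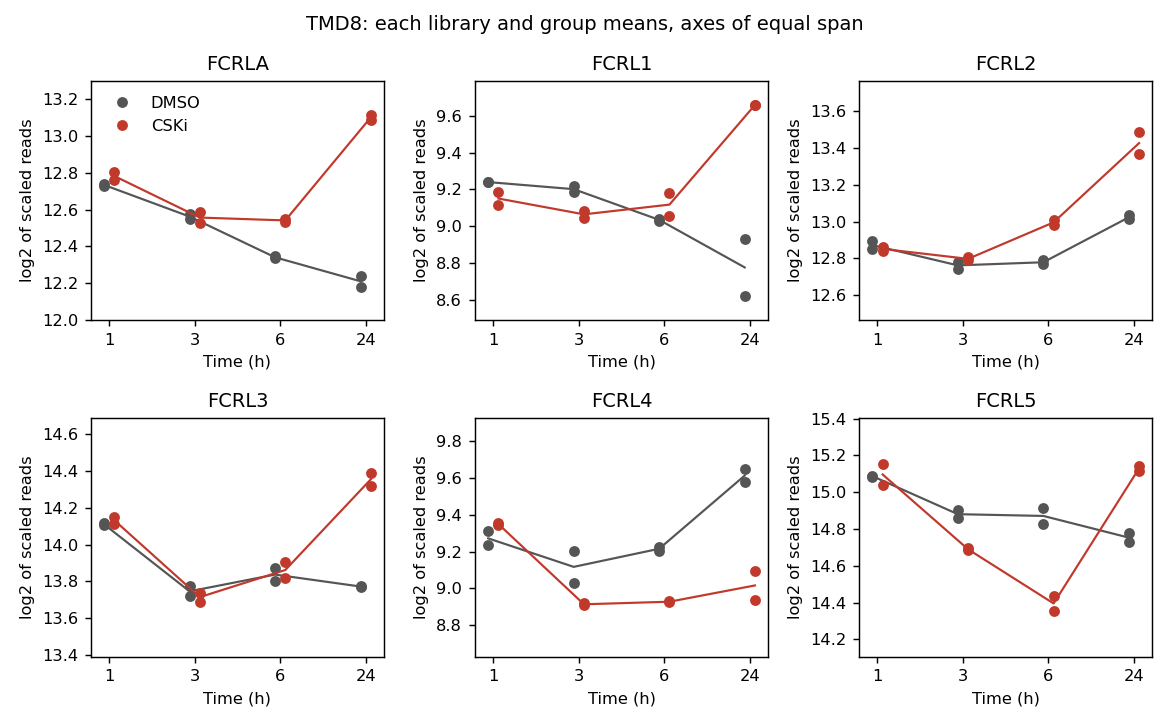
Deposited log2 value of each gene in every TMD8 library by time (times evenly spaced), DMSO in grey and CSKi in red, with lines through the group means; all axes have an equal span. At 24 h CSKi lies above DMSO for 5 genes and below it for FCRL4, and FCRL5 lies lower with CSKi at 3 and 6 h.

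The level in TMD8 vehicle alone differed between the 4 times for all 6 genes (F test in limma, adjusted p from 7.41e-11 for FCRLA to 0.000361 for FCRL1), as it did for 58.4% of all features. FCRLA, FCRL1, FCRL3 and FCRL5 were lower in vehicle at 24 h than at 1 h, by 0.33 to 0.52, and FCRL2 and FCRL4 were higher. The difference between CSKi and DMSO itself changed with time for all 6 genes, against 39.4% of features. Its adjusted p was smallest for FCRLA (3.73e-12) and FCRL5 (3.4e-11), and largest for FCRL4 (0.000509). From 6 to 24 h, the vehicle and CSKi means went in opposite directions for FCRLA (-0.13 and 0.56), FCRL1 (-0.26 and 0.54), FCRL3 (-0.07 and 0.49) and FCRL5 (-0.12 and 0.73). They went the same way for FCRL2 (0.24 and 0.43) and FCRL4 (0.40 and 0.09).

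Other Fc receptor genes of TMD8 were counted beside the family. Of 7 tested besides the 6 genes, FCRLB among them, 4 rose and 1 fell at 24 h, against 27.9% of all features higher and 26.2% lower, with a median log2 difference of 0.61. FCMR, the IgM receptor gene, followed the same course as FCRL5: it was lower at 3 h (-0.31 ± 0.09) and 6 h (-0.77 ± 0.09) and higher at 24 h (1.01 ± 0.09, adjusted p = 1.08e-09). FCGR2B, next to FCRLA, was higher at 24 h (0.66 ± 0.10), as was its near-identical neighbour FCGR2C (1.62 ± 0.28), whose reads can be shared with FCGR2B. PIGR, which carries polymeric immunoglobulin across epithelium, was lower at 6 h (-0.74 ± 0.18) and 24 h (-1.06 ± 0.18).

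Genes for the partners of the FCRL tails and of the B cell receptor were followed as a list of 22, of which 20 were tested in TMD8. At 3 h 4 fell and none rose, against 3.26% of all features lower and 1.48% higher. At 6 h 6 fell and 4 rose, against 6.98% lower and 5.67% higher. At 24 h 2 fell and 11 rose (median log2 difference 0.27), against 26.2% lower and 27.9% higher. PTPN6, the gene of the phosphatase SHP-1, was lower at 3 h (-0.75 ± 0.03), 6 h (-1.22 ± 0.03) and 24 h (-0.40 ± 0.03). CD72, another inhibitory receptor of B cells, was lower at 3 h (-0.51 ± 0.04) and 6 h (-0.43 ± 0.04) and higher at 24 h (0.46 ± 0.04), as FCRL5 was. The B cell receptor chain gene CD79B rose at 6 h (0.29 ± 0.04) and 24 h (0.89 ± 0.04). LYN was lower at 6 h (-0.14 ± 0.04).

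Of 12 genes for reported FCRL ligands, 4 were in the table under the symbols searched and were tested. At 24 h in TMD8, JCHAIN, which joins the IgA and IgM polymers, rose (0.85 ± 0.17), HLA-DRB5 fell (-0.20 ± 0.05), and HLA-DRA and HLA-DRB1 were not called. Of 10 memory and atypical B cell genes tested, 3 rose and 2 fell at 24 h, near the share of all features (27.9% higher and 26.2% lower). TNFRSF13B, which encodes the receptor TACI, was higher (0.69 ± 0.04), and ITGAX, which encodes CD11c and is known together with FCRL4 and FCRL5 from atypical memory B cells, was lower (-0.37 ± 0.06). Of 17 B cell transcription factor genes tested, 11 rose and 2 fell at 24 h, against 27.9% of all features higher and 26.2% lower. IRF4 fell (-0.52 ± 0.03), and IRF8 (0.78 ± 0.05) and the octamer coactivator gene POU2AF1 (0.92 ± 0.07) rose.

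Of 8 B cell markers, 7 rose in TMD8 at 24 h and none fell, against 27.9% of all features higher and 26.2% lower, with a median log2 difference of 0.35, against 0.49 for the 6 Fc receptor-like genes. Some markers of other cell types also moved with CSKi at that time. COL1A1 was higher by 1.55 ± 0.10 and COL1A2 by 0.89 ± 0.20, CD68 by 0.51 ± 0.05, ITGAM by 0.74 ± 0.20 and CD4 by 1.13 ± 0.41. The fibroblast and epithelial markers summed to 17.9 to 52.5 RPM in TMD8, with COL3A1, LUM, EPCAM and KRT18 at or under a mean of 3 reads, and the myeloid markers to 63.7 to 92.0, with CD14, LYZ, S100A8, S100A9 and FCGR3B at or under it. Their part in the levels of the Fc receptor-like genes was not tested.

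**Figure D3:**
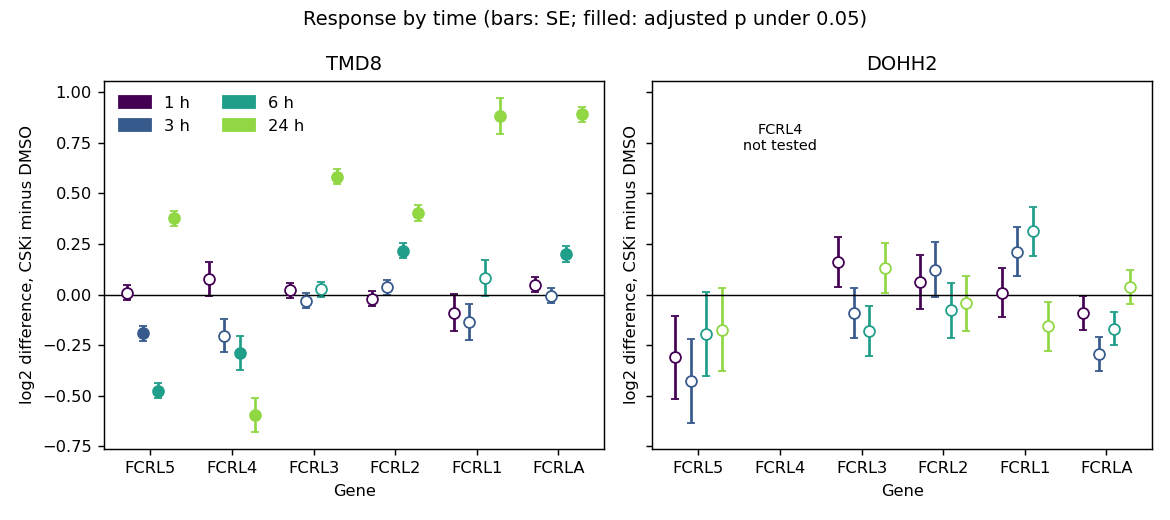
Log2 difference of CSKi minus DMSO (bars, SE of the fit) for each Fc receptor-like gene at 1, 3, 6 and 24 h in TMD8 (left) and DOHH2 (right, from the fit of all 16 DOHH2 libraries); filled points have an adjusted p under 0.05. The TMD8 values at 24 h run from -0.60 for FCRL4 to 0.89 for FCRLA, and no DOHH2 value is filled; without the DOHH2 24 h libraries, FCRLA and FCRL1 were called at 3 and 6 h.

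In DOHH2, FCRLA was lower and FCRL1 higher with CSKi at 3 and 6 h once the 4 libraries labelled 24 h were left out, and with them no gene was called at any time in the fit of DOHH2 alone. In the fit of both lines with all 32 libraries, FCRLA was called at 3 h (-0.30 ± 0.07, adjusted p = 0.00865). With all 16 libraries, limma called 0 of the 5 genes tested at 1, 3, 6 and 24 h, against 0.375%, 2.62%, 0.883% and 0% of all features. At an unadjusted p under 0.05 the numbers were 0, 1, 1 and 0 genes. Of all 12000 features tested, 638, 1808, 1598 and 378 were under that unadjusted p at the same times. FCRL4 was not tested in DOHH2 for lack of reads. Without the 4 libraries, limma called 0 genes at 1 h (2.05% of features), 2 at 3 h (14.5%) and 2 at 6 h (13.6%). Values of CSKi and DMSO did not overlap in 4, 5, 2 and 1 of the 5 genes at the 4 times, against 43.9%, 54.7%, 53% and 16.7% of features.

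FCRLA, the highest member in DOHH2, had DMSO values of 13.34 and 13.39 at 1 h, 13.35 and 13.41 at 3 h, and 13.23 and 13.31 at 6 h. Its CSKi values were 13.23 and 13.30 at 1 h, 13.08 and 13.09 at 3 h, and 13.07 and 13.13 at 6 h. Both CSKi libraries lay below both DMSO libraries at each of these times. The log2 difference at 3 h was -0.30, with an SE of 0.08 and an adjusted p of 0.0848 in the fit of all libraries, and 0.04 and 1.76e-06 without those labelled 24 h. At 6 h it was -0.17, with an adjusted p of 0.406 with the 24 h libraries and 0.0021 without them. Among the libraries labelled 24 h, those labelled DMSO had 13.07 and 13.32 and those labelled CSKi 13.36 and 13.10, so that each value had its closest neighbour under the other label.

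FCRL1 went down in DOHH2 vehicle, with values of 11.53 and 11.47 at 1 h, 11.26 and 11.16 at 3 h, and 10.86 and 10.91 at 6 h. With CSKi it had 11.45 and 11.57 at 1 h, 11.38 and 11.46 at 3 h, and 11.19 and 11.20 at 6 h. The arms overlapped at 1 h, and CSKi was higher in all libraries at 3 and 6 h. The log2 difference was 0.21 at 3 h, with an adjusted p of 0.452 in the fit of all libraries and 0.00417 without those labelled 24 h. At 6 h it was 0.31, with 0.271 and 6.16e-05. The libraries labelled DMSO at 24 h had 11.59 and 11.17, and those labelled CSKi 11.04 and 11.41.

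FCRL2, FCRL3 and FCRL5 were called at no time in DOHH2 with or without those libraries. FCRL5 was the furthest from 0, with DMSO values of 7.94 and 8.05 and CSKi values of 7.29 and 7.85 at 3 h, from 97 to 184 reads per library. The CSKi libraries of FCRL5 lay below the DMSO libraries at 3 h, by a log2 difference of -0.43 (adjusted p = 0.349 with all libraries and 0.0892 without those labelled 24 h). Leaving out 1 of the 4 libraries of that time moved it to between -0.15 and -0.71, the first without CSKi replicate 1 and the second without CSKi replicate 2. At 1 h FCRL5 had DMSO values of 7.88 and 7.99 and CSKi values of 7.54 and 7.71, a difference of -0.31 (adjusted p = 0.991 and 0.423), and at 6 h the arms overlapped (-0.20, adjusted p = 0.732 and 0.499). FCRL2 had differences of 0.06, 0.12 and -0.08 at 1, 3 and 6 h, with adjusted p from 0.757 to 1 with all libraries and from 0.179 to 0.719 without those labelled 24 h. FCRL3 had 0.16, -0.09 and -0.18, with adjusted p from 0.573 to 1 and from 0.351 to 0.686. The value of FCRL3 at 6 h was 0.04 without DMSO replicate 2 of that time and -0.40 without DMSO replicate 1.

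Over time in DOHH2 vehicle, FCRL1 alone changed in the fit of all libraries (adjusted p = 0.0087), against 29.3% of features, and it was 0.61 lower at 6 h than at 1 h. That call was lost without DMSO replicate 1 of 6 h. Over 1, 3 and 6 h without the 24 h libraries, FCRLA (adjusted p = 0.0283), FCRL1 (2.46e-09) and FCRL2 (0.000655) changed, against 52.9% of features. The difference between CSKi and DMSO changed with time for none of the 5 genes with all libraries (0.2% of features). Without the 24 h libraries it did for FCRLA (adjusted p = 0.0347) and FCRL1 (0.0169), against 8.1%.

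**Figure D4:**
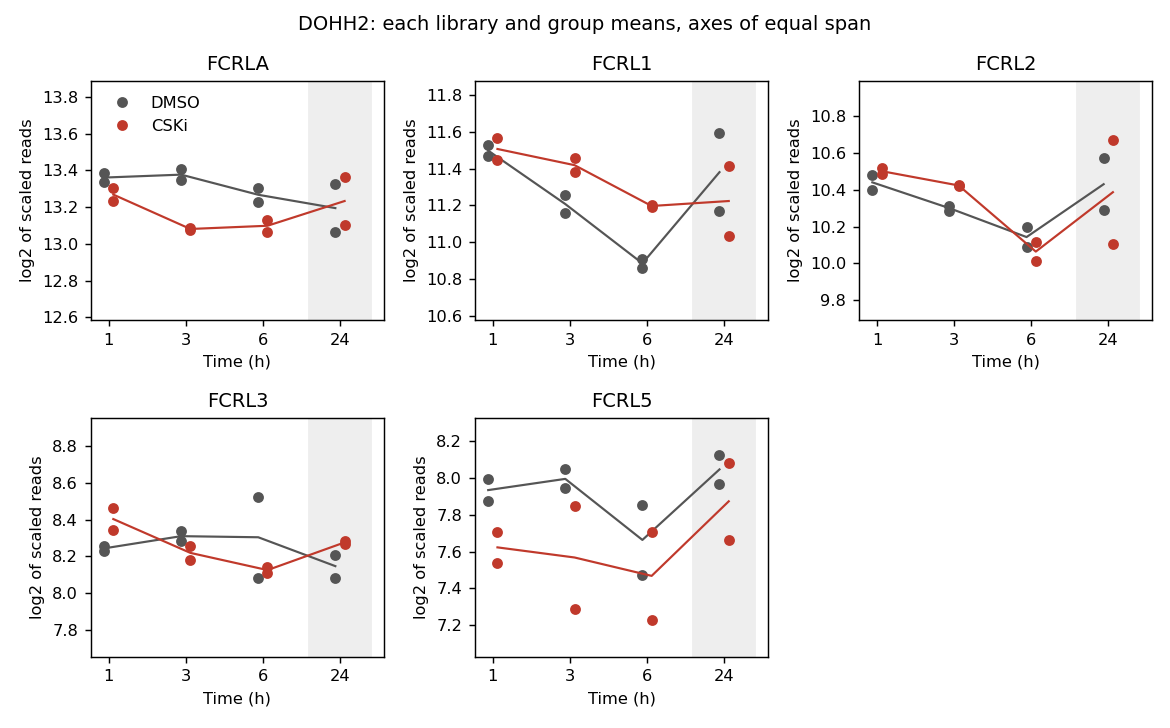
Deposited log2 value of the 5 genes tested in DOHH2 in every library by time (times evenly spaced), DMSO in grey and CSKi in red, with lines through group means and the libraries labelled 24 h shaded; all axes have an equal span. FCRLA is lower and FCRL1 higher with CSKi at 3 and 6 h, and at 24 h the 2 labels interleave for FCRLA, FCRL1, FCRL2 and FCRL5.

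The responses of the lines were set against each other as CSKi minus DMSO in TMD8 less the same in DOHH2, in a limma fit of all 32 libraries. FCRLA went in opposite directions at 6 h, 0.20 in TMD8 and -0.17 in DOHH2, and the difference of 0.37 ± 0.09 was the 1 called among the 6 genes (adjusted p = 0.0400), against 2.08% of features. Without the DOHH2 24 h libraries the FCRLA difference had an SE of 0.05 and an adjusted p of 2.22e-05, and FCRL2 was called as well (0.30 ± 0.06, adjusted p = 0.00291), against 5.97%. With all libraries, leaving out the DOHH2 DMSO replicate 1 of 6 h gave FCRL3 in place of FCRLA, and 17 of the 32 fits that left out 1 library called none of the 6. Those were the fits without a DMSO library of 1 h in either line, without a DMSO library of 3 h in TMD8 or any library of 3 h in DOHH2, and without any other library of 6 h. At 3 h none was called with all libraries (1.26% of features), and without the 24 h libraries FCRLA was (0.29 ± 0.05, adjusted p = 0.000779, 4.83% of features). At 1 h none was called in either fit (0.142% and 0.45% of features).

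At 24 h the line difference was called for FCRLA (0.85 ± 0.09), FCRL1 (1.04 ± 0.16), FCRL2 (0.45 ± 0.15, adjusted p = 0.0247) and FCRL3 (0.45 ± 0.12, adjusted p = 0.00513), against 32.6% of features. FCRL5 had 0.55 ± 0.21 (adjusted p = 0.0518). It was called with a filter of 10000 features, with voom on recovered reads and at an adjusted p under 0.1. Its difference lay between 0.34 and 0.76 when 1 library was left out. The difference of FCRL2 lay between 0.16 and 0.73 when 1 library of 24 h was left out. Its call was lost (adjusted p up to 0.18) without either DMSO library or CSKi replicate 2 of TMD8, and without replicate 2 of either DOHH2 group. It was also lost with no filter on low features and at an adjusted p under 0.01. All of these use the DOHH2 libraries labelled 24 h and cannot be had without them. A difference between the lines and wrong labels of those libraries therefore cannot be told apart at 24 h. For FCRL4 the comparison rests on 0 to 2 DOHH2 reads per library, and its values are not read here.

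Likeness was measured as Pearson's r of log2 values over the libraries of a line, which share treatment and time, and is given without a test. In TMD8 (16 libraries), FCRLA was most like SH2D3C (r = 0.972), PARP15 and FMNL1-DT, and FCRL1 was most like MZB1 (0.918), SH2D3C and PCDHGC3. FCRL2 was most like ABCA7 (0.973), NAPSA and TPTE2P1, and FCRL3 most like BTG1 (0.979), LRRK1 and S1PR1. FCRL4 had the closest profiles in CALR (0.961), BATF and CD274, and FCRL5 in SH3BP5 (0.959), PTK2B and FCMR (0.951). Spearman's rho of these 18 pairs ran from 0.753 to 0.962.

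Within the family in TMD8, FCRLA and FCRL1 were the pair most alike (r = 0.896), followed by FCRLA and FCRL3 (0.849), and FCRL4 ran from -0.483 with FCRL1 to 0.317 with FCRL5. In the 12 DOHH2 libraries at 1, 3 and 6 h, the pairs most alike were FCRL1 with FCRL2 (0.788) and FCRLA with FCRL5 (0.763), and FCRLA with FCRL1 had 0.017. The genes most like each member there were MELTF for FCRLA (0.954), GMFG for FCRL1 (0.980), HDDC2 for FCRL2 (0.969), SFXN5 for FCRL3 (0.817) and ADAM8 for FCRL5 (0.894). Next came ELF4 and ATXN7L3, C14orf93 and PTPN18, NLRC5 and CUTC, TBCE and EPHB6, and STAG3L2 and ATXN2L. None of the genes named for TMD8 was among those named for DOHH2. The TMD8 libraries included 24 h and the DOHH2 libraries did not, so this is no like comparison of the lines.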

How the data were processed

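The deposited values are on a log2 scale: the authors' read counts, each library scaled by its own factor, with 0 where a gene had no read. HTSeq counts on hg19 are named in the submitters' processing notes. No source used here names the aligner, the strand setting or the origin of the factor. Reads were recovered from the value of 1 read (whole within 0.1 reads for 99.4 to 100% of values under 300 reads) and gave RPKM with exon lengths from GENCODE v29. Tests used limma 3.58.1 (R 4.3.3) on the deposited log2 values, with 1 mean per group, a mean trend of the variance and two-sided p-values. Benjamini-Hochberg adjustment covered the 12000 features of highest mean, and adjusted p under 0.05 was called. The 16 libraries of a line were fitted together (8 residual degrees of freedom), and all 32 (16) for comparisons of the lines. Change over time was an F test of 3 contrasts against 1 h. The code was tested on simulated data. The family and all lists were chosen with earlier results of these data known. The naming rule took all 6 genes, not each with a value in every contrast, CSK, up to 3 genes per list with the smallest adjusted p, and the 3 features most like each member; LYN, CD72 at 24 h and further list genes were added after their values were seen. Alternatives were other filters, scalings, thresholds, variance models (voom on recovered reads among them) and sets of libraries, a replicate block and each library left out; the crossed block was added after seeing the data. Python 3.11.15, pandas 2.3.3 and matplotlib 3.10.9 made tables and figures. A gene that the naming rule would give is counted in its list but not reported here by name.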

Additional observations from a re-analysis of the deposited data

Results flagged for a closer look

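The difference between CSKi and DMSO in TMD8 was not the same at all 4 times for any of the 6 genes, by the F test in limma with Benjamini-Hochberg adjustment. The adjusted p was 3.73e-12 for FCRLA, 9.25e-07 for FCRL1, 1.86e-06 for FCRL2, 1.11e-09 for FCRL3, 0.000509 for FCRL4 and 3.4e-11 for FCRL5. FCRL5 changed sign between 6 and 24 h, FCRL4 stayed below vehicle from 3 h, and FCRLA, FCRL1, FCRL2 and FCRL3 had their highest difference at 24 h.

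The response differed between the lines, by the test of that difference, for FCRLA at 6 h (0.37 on the log2 scale, TMD8 less DOHH2). At 24 h the same test called FCRLA (0.85), FCRL1 (1.04), FCRL2 (0.45) and FCRL3 (0.45). The values at 24 h use the DOHH2 libraries whose duplicates differed more from each other than each did from the library of the other label and other replicate number. A difference between the lines and wrong labels cannot be told apart at that time.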

How the results depend on the processing

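Of 2487 recomputed single-gene log2 differences, 2388 kept their direction and side of the threshold, 42 lost and 26 gained the call, and 31 changed sign, of which 0 were called before or after. Quantile normalization turned FCRL5 in TMD8 at 1 h to -0.013, FCRLA in TMD8 at 3 h to 0.017 and the line difference of FCRL4 at 3 h to 0.037. Scaling to total mapped reads turned the latter 2 to 0.007 and 0.220. With voom, FCRLA in TMD8 at 3 h was 0.006, FCRL1 in DOHH2 at 1 h -0.006, and the line difference of FCRL4 0.502 at 3 h and 0.425 at 24 h. The other 22 sign changes came from leaving out 1 library. In TMD8 the ranges were -0.049 to 0.067 for FCRL5 at 1 h, -0.036 to 0.025 for FCRLA at 3 h and -0.018 to 0.069 for FCRL3 at 6 h. In DOHH2 they were -0.051 to 0.07 for FCRL1 at 1 h, and at 6 h -0.398 to 0.041 for FCRL3 and -0.434 to 0.043 for FCRL5. At 24 h in DOHH2 they were -0.091 to 0.168 for FCRLA, -0.367 to 0.053 for FCRL1, -0.326 to 0.239 for FCRL2 and -0.381 to 0.035 for FCRL5. For the line difference they were -0.418 to 0.272 (FCRL4) and -0.041 to 0.514 (FCRL5) at 3 h, -0.016 to 0.423 (FCRL3) at 6 h and -0.597 to 0.442 (FCRL4) at 24 h. The number of genes called in TMD8 at 3 h went from 1 to 0 without a mean trend and in the fit of both lines, and at 6 h from 4 to 0 in that fit. In DOHH2 it went at 3 h from 0 to 1 at adjusted p under 0.1 and in the fit of both lines and to 2 without the libraries labelled 24 h. Without those libraries it was 2 at 6 h, 3 for vehicle over time, 2 for the response over time, and 1 and 2 for the line difference at 3 and 6 h. The line difference at 6 h fell to 0 with 14000 features, with no filter, without a mean trend and at adjusted p under 0.01. Leaving out 1 library gave 0 to 1 gene in TMD8 at 3 h and 3 to 4 at 6 h. It gave 0 to 1 in DOHH2 at 3 h, 0 to 2 for vehicle and 0 to 2 for the response over time, and 0 to 1, 0 to 1 and 3 to 5 for the line difference at 3, 6 and 24 h. Where an arm kept 1 library, it was assumed to vary like the other groups. The cause of these changes was not tested. With the replicate number as a block, the counts were the same, 0, 1, 4 and 6 genes in TMD8 at the 4 times. Same-numbered libraries did not deviate together (r from -0.476 to 0.166), so the pairing is not taken from the numbers. The crossed block for DOHH2 at 24 h, which swapped the replicate numbers of the CSKi libraries, called 0 genes. It kept the DMSO and CSKi labels as given, so it cannot test whether those labels are right. FCRL4 in DOHH2, with at most 2 reads per library, is below what this depth can compare.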
